A study of Homo sapiens with 12 samples.

Results

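ISG15, IFI6, IFI27, IFITM1, IFITM2, IFITM3 and BST2 are 7 genes that encode small proteins induced by interferon. They were taken by symbol from a table of 57353 genes, and all 7 were found. The set was chosen by a measured value, the high polysome to light ratio of ISG15 with vehicle and its loss under sorafenib, so the fraction ratios of these genes, and every value of ISG15, are given as descriptions without a test. For the other members, sorafenib and vehicle were compared within each fraction with a test. All members were chosen with earlier results of these data known, so those p-values are not independent of the choice. HepG2, a human liver cancer cell line of wild-type genotype per the labels, was kept for 12 h in 10 µM sorafenib, which inhibits several kinases and is given for liver cancer, or in the solvent DMSO alone as vehicle. All cultures were treated with cycloheximide, which stalls ribosomes on mRNA, and the lysates were spread over sucrose gradients. RNA was sequenced from a polysome pool, which holds mRNA with several ribosomes, and from a light pool, which holds low-molecular complexes, free ribosomal subunits and single ribosomes. The 4 groups are sorafenib polysome, vehicle polysome, sorafenib light and vehicle light, with 3 libraries each, from 6 cultures that each gave both fractions. All cells are of 1 line, and a lysate normally joined several dishes.

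Interferons bind receptors on the cell surface that activate the kinases JAK1 and TYK2. These phosphorylate STAT proteins such as STAT2, which join IRF9 and bind a short element, the interferon-stimulated response element, upstream of target genes. ISG15 is a ubiquitin-like protein that is attached to other proteins by an enzyme cascade of UBA7, UBE2L6 and HERC5 and is removed by USP18. BST2, also called tetherin, holds budding virus particles at the cell membrane. IFITM1, IFITM2 and IFITM3 are membrane proteins that hinder the fusion of viruses with the cell. IFI6 and IFI27 belong to a family of small, hydrophobic interferon-induced proteins found at the endoplasmic reticulum and mitochondria.

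The core of that response element was looked for because it is what the members' name as interferon-induced genes refers to. The search used the letters GAAANNGAAA, N being any base, on both strands within 250 bases upstream of each gene's start in RefSeq sequences of build GRCh38.p14. All 6 members with an entry held at least 1 match, against 1014 of 27305 genes (3.71%). The stretches that carry the matches are printed 5′ to 3′ on the gene's strand, with the matched bases in capitals.
ISG15: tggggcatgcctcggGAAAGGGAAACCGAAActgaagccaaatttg
IFI6: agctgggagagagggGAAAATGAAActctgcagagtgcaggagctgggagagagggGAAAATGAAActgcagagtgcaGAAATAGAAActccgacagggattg
IFI27: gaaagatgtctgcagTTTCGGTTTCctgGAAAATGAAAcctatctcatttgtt
IFITM1: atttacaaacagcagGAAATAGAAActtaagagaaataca
IFITM3: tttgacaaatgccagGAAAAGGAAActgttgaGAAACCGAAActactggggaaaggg
BST2: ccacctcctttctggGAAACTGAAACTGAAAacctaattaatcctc
The ISG15 stretch is chr1:1013369-1013414 on the plus strand, and its 2 matches overlap. The IFI6 stretch is chr1:27672261-27672363 on the minus strand, with 3 matches. The IFI27 stretch is chr14:94110613-94110665 on the plus strand, with 1 match on each strand. The IFITM1 stretch is chr11:313985-314024 on the plus strand, and the IFITM3 stretch is chr11:320871-320927 on the minus strand. The BST2 stretch is chr19:17405730-17405775 on the minus strand, with 2 overlapping matches. All of these stretches lie upstream of the gene's start. A match is a description of the sequence only, and the counts below measure RNA in gradient fractions, not promoter activity.

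Total counts per library were 10011614, 13336689 and 10044378 in the sorafenib polysome group and 10584699, 4769383 and 9583095 in the vehicle polysome group. They were 2060384, 511065 and 4989312 in the sorafenib light group, against 7387602 to 11955977 in the vehicle light group. Replicates of the sorafenib light group correlated at 0.80 to 0.93 (log2 values over genes), against 0.95 to 0.99 in the other groups. Sorafenib light library 2, the shallowest, still had 25638 genes with a count, against 22300 to 25981 in the other libraries. Of its counts 4.54% fell in genes too low to test, against 0.150% to 0.965% in the others. The 13 hepatocyte and HepG2 markers, such as albumin, were all detected, and summed to 37737 to 43908 CPM (counts relative to the library total) in sorafenib polysome and 12392 to 25105 in vehicle polysome libraries. In the light fraction they summed to 35133 to 37424 with sorafenib and 6466 to 12803 with vehicle. All 8 immune cell markers were present in the table, at 365 to 551 CPM in sorafenib polysome, 458 to 661 in vehicle polysome, 192 to 318 in sorafenib light and 64.2 to 210 in vehicle light libraries, carried mostly by LYZ (lysozyme, 101 to 6747 counts per library) and CD68 (16 to 406 counts). The other 6 of these markers had at most 52 counts in a library, with at most 6 of PTPRC, 3 of CD3E, 2 of CSF1R and 2 of NKG7. The 8 fibroblast and endothelial markers summed to 1.42 to 3.29 CPM in sorafenib polysome, 2.17 to 3.35 in vehicle polysome, 4.01 to 52.8 in sorafenib light and 1.59 to 2.84 in vehicle light libraries. None of these 8 had more than 10 counts in a sorafenib light library. The part of these markers in the results below was not tested.

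Levels below are CPM scaled by TMM, a method that sets most genes equal between libraries, and called scaled CPM. They are relative to the other genes of the same library. Fewer cells with a transcript and less of it per cell cannot be told apart, and since all 12 libraries were scaled together and RNA from whole lysates was not analysed here, neither can a change in total mRNA and a shift between fractions. Levels are not compared between genes, because transcript lengths were not used.

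ISG15 was at 66.3, 54.4 and 59.2 scaled CPM in sorafenib polysome libraries, against 78.9, 130.6 and 99.8 in vehicle polysome libraries. In the light fraction it was at 68.1, 61.7 and 71.7 scaled CPM with sorafenib, against 7.96, 11.0 and 16.2 with vehicle. The sorafenib values lay below all vehicle values on polysomes and above all vehicle values in the light fraction, with no overlap in either. The vehicle light group was lowest, the 2 sorafenib groups were close to each other and overlapped, and the vehicle polysome group was highest. The log2 difference between sorafenib and vehicle was -0.78 ± 0.24 (SE) on polysomes and 2.55 ± 0.27 in the light fraction. On a linear scale this was 0.582 times the vehicle level on polysomes and 5.85 times in the light fraction. The values rest on 839 to 949 counts in sorafenib polysome, 737 to 1181 in vehicle polysome, 33 to 307 in sorafenib light and 50 to 90 in vehicle light libraries.

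**Figure D1:**
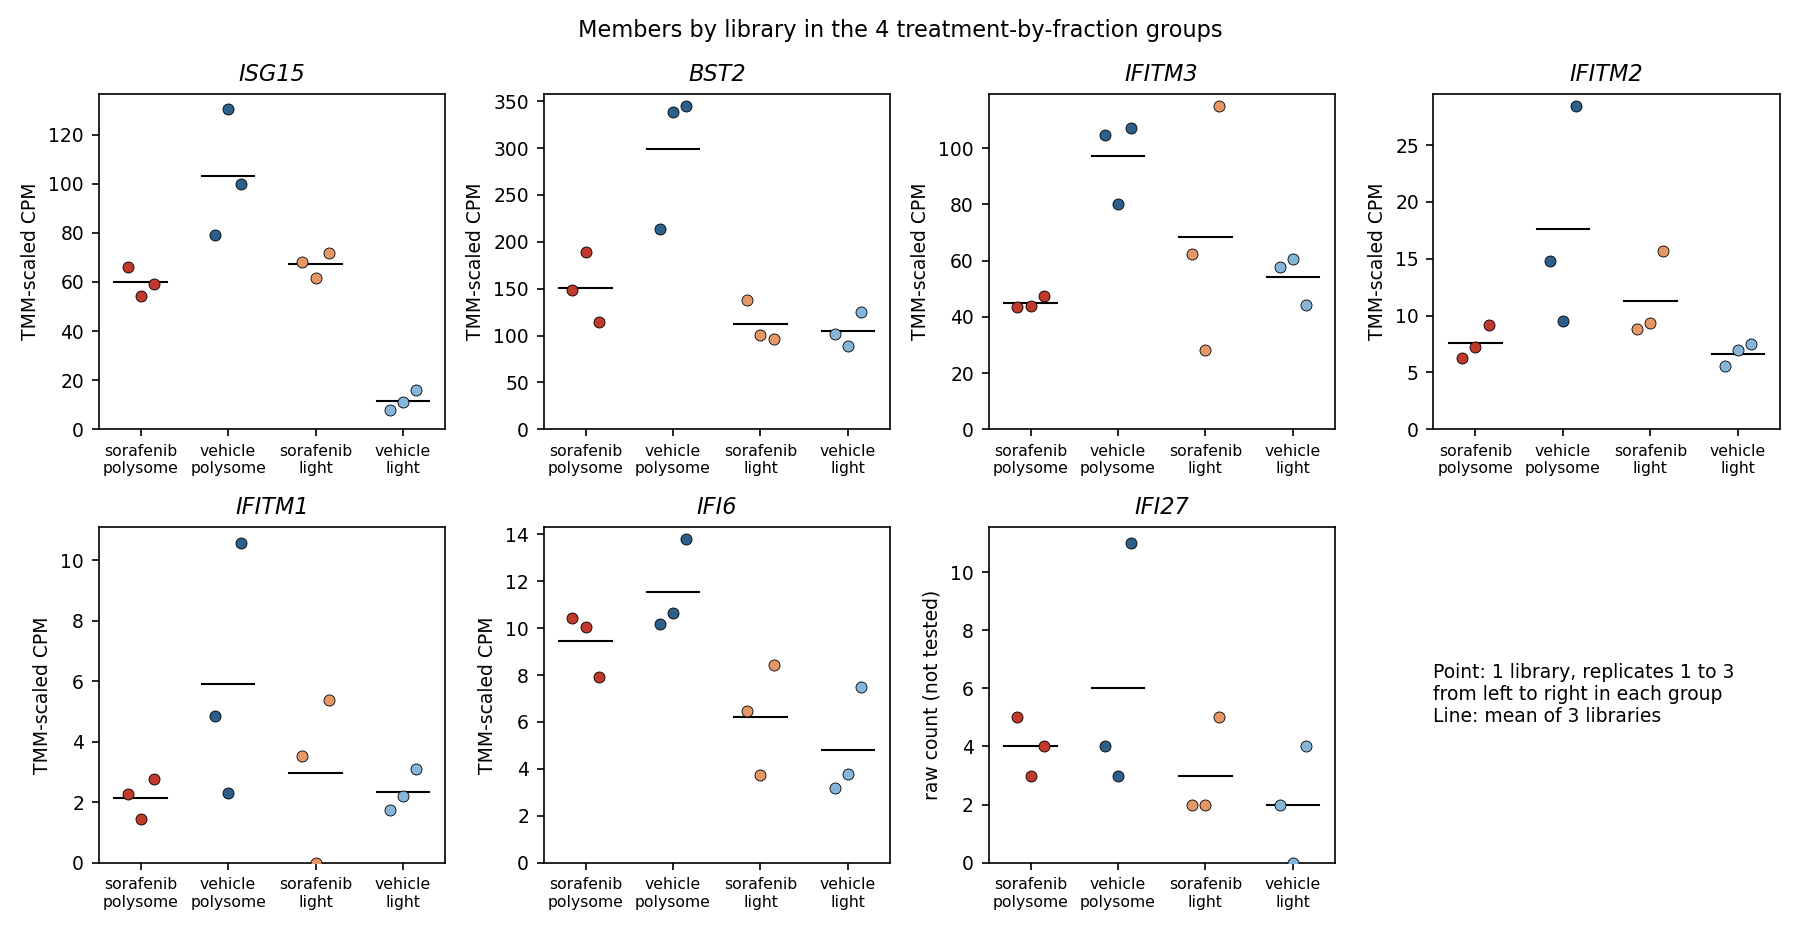
Scaled CPM (linear axes from 0, 1 scale per gene) in each of the 12 libraries, by treatment and fraction, 1 point per library, lines at the mean of 3; IFI27, which was not tested, is shown by its raw counts. ISG15 is lowest in the 3 vehicle light libraries (7.96 to 16.2) and stands at 54.4 to 130.6 in the other 9.

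Within each culture the polysome to light ratio of ISG15 was 0.973, 0.882 and 0.827 with sorafenib, against 9.66, 11.7 and 6.09 with vehicle. Every sorafenib culture was below 1 and every vehicle culture was above 6. The fitted log2 ratio was -0.18 ± 0.25 with sorafenib and 3.15 ± 0.27 with vehicle, and the sorafenib effect on polysomes minus that in the light fraction was -3.33 ± 0.36. By the vehicle ratio ISG15 ranked 3 among 14955 tested genes, behind HLA-J at 3.65 ± 0.71 and AC097534.1 at 3.19 ± 1.09; leaving out 1 vehicle light library moved it to 85 (without library 1, of 16260 genes then tested), 41 (without library 2, of 16312) or 75 (without library 3, of 16268), and leaving out 1 vehicle polysome library to 15 to 22. Among the 9396 better-counted genes (mean log2 CPM 3 or more) it ranked 2, and CENPW (2.91), NDUFC2-KCTD14 (2.85), NDUFC2 (2.80), BEX1 (2.77) and TXNP6 (2.71) followed. The SEs of these neighbours, 0.26 to 0.44, exceed the gaps between them. The sign of the ratio with sorafenib depends on the scale: it was positive under 9 of 27 alternative settings, with values of -0.25 to 0.61. The vehicle ratio stayed between 2.90 and 4.03, and the light-fraction difference between 2.38 and 3.00.

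**Figure D2:**
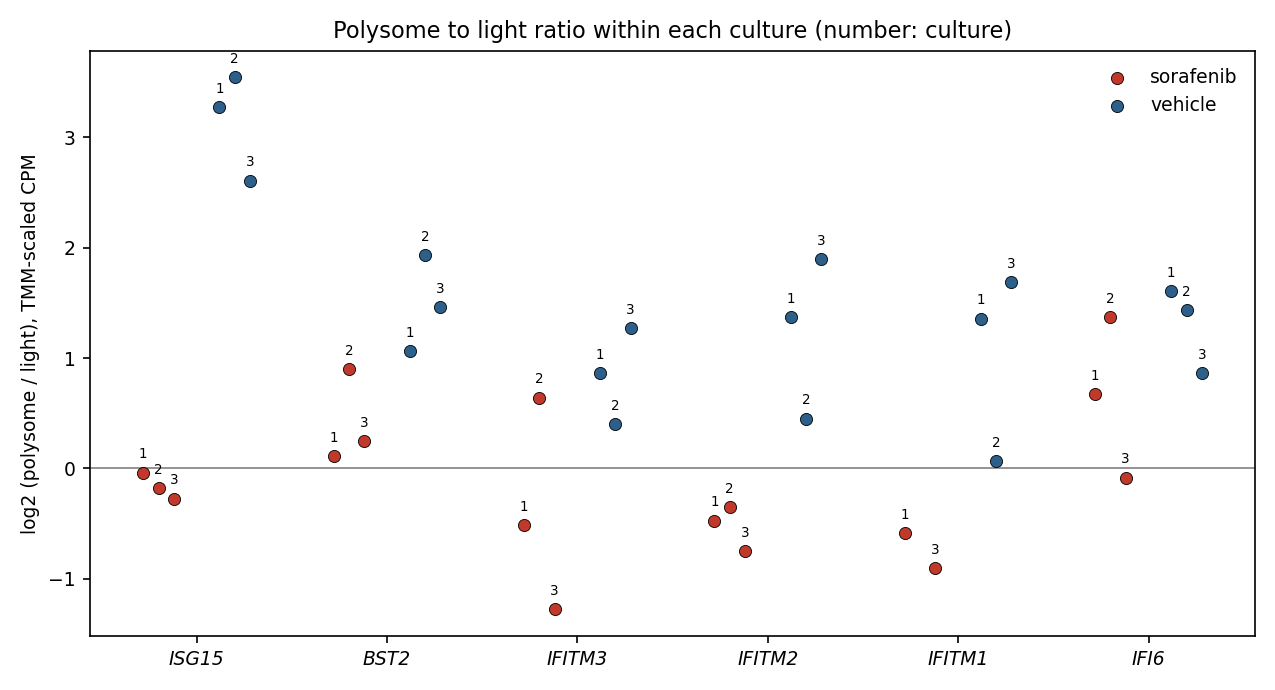
Log2 ratio of scaled CPM in the polysome over the light fraction of the same culture for 6 members, 1 point per culture, sorafenib left and vehicle right of each gene. ISG15 lies at -0.27 to -0.04 with sorafenib and at 2.61 to 3.55 with vehicle; IFITM1 of sorafenib culture 2 is not drawn, because its light library held 0 counts.

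BST2 was at 148.7, 188.8 and 114.5 scaled CPM in sorafenib polysome libraries, against 213.3, 338.3 and 345.4 in vehicle polysome libraries, with no overlap. It fell by 0.99 ± 0.26 on the log2 scale (edgeR quasi-likelihood test, adjusted p = 0.00393). Its light-fraction levels were 138.0, 101.0 and 96.5 scaled CPM with sorafenib, against 102.1, 88.6 and 125.1 with vehicle. These ranges overlapped, and the log2 difference was 0.09 ± 0.27 (edgeR adjusted p = 0.821). Within cultures its log2 polysome to light ratio was 0.11, 0.90 and 0.25 with sorafenib, against 1.06, 1.93 and 1.46 with vehicle. It was therefore above 0 in all 6 cultures.

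IFITM3 was at 43.5, 43.9 and 47.4 scaled CPM in sorafenib polysome libraries, against 104.9, 80.1 and 107.2 in vehicle polysome libraries. The groups did not overlap, and the gene fell by 1.12 ± 0.30 on the log2 scale (edgeR adjusted p = 0.00465, and 0.0501 without vehicle light library 2). Light-fraction levels of IFITM3 were 62.2, 28.1 and 115.1 scaled CPM with sorafenib, against 57.6, 60.6 and 44.2 with vehicle. The sorafenib libraries spanned the whole vehicle range, and the log2 difference was 0.44 ± 0.31 (edgeR adjusted p = 0.298). Without the shallowest library, sorafenib light library 2, it was 0.86, with an adjusted p of 0.0170. Over all 27 alternative settings it ran from -0.24 to 1.24 and had the opposite sign in 2, so its direction is not settled.

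IFITM2 was at 6.26, 7.28 and 9.18 scaled CPM in sorafenib polysome libraries, against 14.8, 9.57 and 28.4 in vehicle polysome libraries. It fell by 1.23 ± 0.32 on the log2 scale (edgeR adjusted p = 0.00416), and the lowest vehicle library was only just above the highest sorafenib library. Without vehicle polysome library 3, the highest of them, the log2 difference was -0.71 with an adjusted p of 0.0653. Light-fraction levels of IFITM2 were 8.81, 9.35 and 15.6 scaled CPM with sorafenib, against 5.57, 6.95 and 7.47 with vehicle. These did not overlap, but the log2 difference of 0.88 ± 0.39 did not pass the test (edgeR adjusted p = 0.0974). They rest on 15, 5 and 67 counts with sorafenib and 35, 57 and 36 with vehicle, so the separation is uncertain. Like ISG15, IFITM2 thus had, in scaled CPM, every sorafenib library below vehicle on polysomes and above vehicle in the light fraction. This was so for 477 of 14955 genes (3.19%). In CPM of total counts the IFITM2 polysome groups overlapped, with sorafenib library 3 at 12.9 and vehicle library 2 at 11.3.

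IFITM1 was at 2.26, 1.43 and 2.75 scaled CPM in sorafenib polysome libraries, against 4.85, 2.30 and 10.6 in vehicle polysome libraries. The groups overlapped, and the gene fell by 1.50 ± 0.48 on the log2 scale (edgeR adjusted p = 0.0150). This call was lost without vehicle polysome library 3 (-0.80, adjusted p = 0.198), without sorafenib polysome library 2 (adjusted p = 0.0638) and without vehicle light library 2 (adjusted p = 0.0505). Light-fraction levels of IFITM1 were 3.52, 0 and 5.37 scaled CPM with sorafenib, against 1.75, 2.19 and 3.11 with vehicle, on 0 to 23 counts per library. The log2 difference was 0.78 ± 0.62 (edgeR adjusted p = 0.355). The 3 IFITM genes are paralogs of similar sequence, so reads may have been split between them and their separate values are uncertain.

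IFI6 was at 10.4, 10.0 and 7.91 scaled CPM in sorafenib polysome libraries, against 10.2, 10.6 and 13.8 in vehicle polysome libraries. The groups overlapped and the log2 difference was -0.29 ± 0.29 (edgeR adjusted p = 0.421). Light-fraction levels of IFI6 were 6.46, 3.74 and 8.41 scaled CPM with sorafenib, against 3.18, 3.78 and 7.47 with vehicle. The difference of 0.59 ± 0.38 did not pass the test (edgeR adjusted p = 0.254), and it was 1.07 with an adjusted p of 0.0491 without vehicle light library 3. IFI27 had 5, 3 and 4 counts in sorafenib polysome, 4, 3 and 11 in vehicle polysome, 2, 2 and 5 in sorafenib light and 2, 0 and 4 in vehicle light libraries. It did not pass the filter on low counts, and no difference could be measured at this depth.

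Of the 5 members besides ISG15 that were tested, 4 fell on polysomes, where 28.8% of all tested genes fell (edgeR adjusted p under 0.05) and the median log2 difference of all genes was -0.26. This became 2 of 5 without vehicle light library 2 or vehicle polysome library 3, 0 of 5 without both libraries of vehicle culture 3, and 1 of 5 without the low-count filter. In the light fraction 0 of the 5 rose in the same fit, 1 passed at an unadjusted p under 0.05 and 0 rose by DESeq2, where 11.7% of all genes rose in edgeR. Leaving out single libraries gave 0 or 1 rise. Besides ISG15, by which the set was chosen, IFITM2, IFITM3 and BST2 of the other 5 lay below all vehicle values on polysomes in scaled CPM. IFITM2 alone of these 5 lay above all vehicle values in the light fraction. Without overlap, 35% of all genes were lower on polysomes and 15% were higher in the light fraction. The members were chosen with earlier results of these data known, so these counts are not independent of that choice.

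By fitted log2 polysome to light ratio with vehicle, the order after ISG15 was BST2 (1.51), IFITM2 (1.42), IFITM1 (1.38), IFI6 (1.30) and IFITM3 (0.85). Their SEs of 0.26 to 0.51 are larger than the gaps between the first 4 of these. With sorafenib the ratios were 0.43 for BST2, 0.42 for IFI6, -0.69 for IFITM2, -0.71 for IFITM3 and -0.90 for IFITM1. Under 27 alternative settings the sign was opposite in 2 for IFITM2, 2 for IFITM3 and 1 for IFITM1. It was opposite in 0 for BST2 and 0 for IFI6. The sorafenib effect on polysomes minus that in the light fraction was below 0 for all 6 measured members, ISG15 included, as it was for 49.1% of all tested genes. It was -2.28 for IFITM1, -2.11 for IFITM2, -1.56 for IFITM3, -1.08 for BST2 and -0.88 for IFI6, and this is the contrast the choice of ISG15 rested on. With vehicle, 18.3% of all genes were called higher on polysomes, and in the difference of effects 10.7% were called lower.

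**Figure D3:**
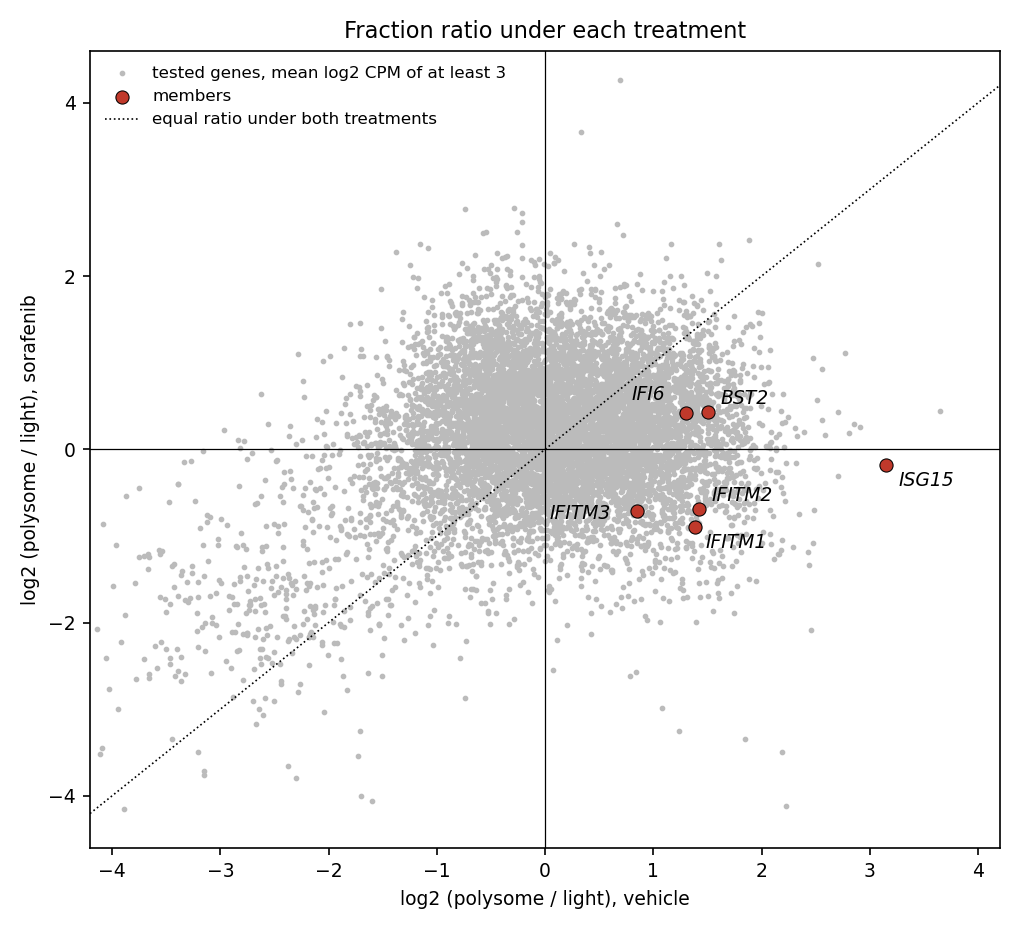
Fitted log2 polysome to light ratio with vehicle (x axis) and with sorafenib (y axis) for the 9396 better-counted genes (grey) and the 6 measured members (red); the dotted line marks equal ratios, and 53 genes lie outside the axes. ISG15 lies far right at 3.15 and near 0 on the y axis at -0.18, and all 6 members lie below the dotted line.

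Summed over the 7 genes, CPM of total counts were 369 ± 30.1 in sorafenib polysome and 650 ± 114 in vehicle polysome libraries (SD, n = 3 each). They were 242 ± 26.2 in sorafenib light and 122 ± 10.3 in vehicle light libraries. These sums were not scaled by TMM, whose factors were 0.835 to 1.10 in sorafenib light and 0.637 to 0.688 in vehicle light libraries. After scaling, the log2 difference in the light fraction was 2.55 for ISG15 but 0.09 for BST2, so the sums do not show a rise of each member. ISG15 made up 22.1 ± 3.73% of this sum in sorafenib polysome, 19.3 ± 3.25% in vehicle polysome, 25.4 ± 3.77% in sorafenib light and 6.24 ± 1.73% in vehicle light libraries. Its share was low in the vehicle light group alone.

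The genes whose levels followed ISG15 most closely over the 12 libraries, among 9395 better-counted genes, were SKP1 and TPI1 (Pearson r = 0.967 each), CFD and PSMB1 (0.966 each) and COMMD4 (0.964). The libraries share treatments and fractions, so these values are a description. CFD, which encodes complement factor D, averaged 32.4 ± 4.65 scaled CPM in sorafenib polysome, 41.7 ± 9.98 in vehicle polysome, 30.9 ± 8.81 in sorafenib light and 7.01 ± 2.02 in vehicle light libraries (SD, n = 3 each). Among the members the correlation with ISG15 was 0.74 for IFI6, 0.63 for BST2, 0.59 for IFITM2, 0.30 for IFITM3 and 0.16 for IFITM1.

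Of the members' family relatives, IFI27L1 and IFI27L2 could be tested, and both fell on polysomes, where 28.8% of all tested genes fell. IFI27L1 averaged 7.98 ± 2.04 scaled CPM with sorafenib and 18.5 ± 2.56 with vehicle (SD, n = 3 each), a log2 difference of -1.21 ± 0.24 (edgeR adjusted p = 4.45e-04). IFI27L2 averaged 3.13 ± 0.70 with sorafenib and 8.62 ± 0.88 with vehicle (-1.46 ± 0.33, edgeR adjusted p = 0.00138). Neither passed the test in the light fraction, where 11.7% of all genes rose and 17.7% fell.

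Ubiquitin and ubiquitin-like modifiers, the protein class of ISG15, were mostly lower on polysomes in the fit of all 12 libraries: of 17 tested, 14 fell, 1 rose and 2 did not pass the test, with a median log2 difference of -0.97 against -0.26 over all genes, of which 28.8% fell. Leaving out single libraries gave 9 to 12 falls, and 9 without any 1 of the vehicle light libraries, sorafenib light library 1 or 3 or sorafenib polysome library 3; without both libraries of vehicle culture 1 there were 5 falls, and without the low-count filter 3. Their rise of 1 of 17 stood beside 20.9% of all genes that rose. In the light fraction 3 rose, 1 fell and 13 did not pass (median 0.19, against -0.12 over all genes), where 11.7% of all genes rose and 17.7% fell. The 3 rises there became 0 without vehicle light library 1 and 7 without sorafenib light library 2. URM1, which takes part in tRNA thiolation, averaged 56.9 ± 8.13 scaled CPM with sorafenib and 165 ± 15.2 with vehicle on polysomes (-1.53 ± 0.21, edgeR adjusted p = 1.72e-05). UBL5, a modifier in pre-mRNA splicing, averaged 152 ± 23.1 with sorafenib and 445 ± 108 with vehicle (-1.55 ± 0.29, edgeR adjusted p = 3.06e-04). GABARAPL2, an autophagy modifier, averaged 82.8 ± 5.22 with sorafenib and 210 ± 4.62 with vehicle (-1.34 ± 0.20, edgeR adjusted p = 2.74e-05). In the difference of effects, 9 of the 17 were called lower (6 to 10 without single libraries) and 0 higher by edgeR (median -1.17, against 0.02 over all genes), where 10.7% of all genes were called lower and 12.8% higher; 1 was higher at an unadjusted p under 0.05 and 1 by DESeq2. No promoter of the 13 with an entry held the GAAANNGAAA match, which 3.71% of all genes held, and 13 promoters are too few to show a lack.

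Of the enzymes that attach or remove ISG15, 7 of 8 were tested: 3 rose, 1 fell and 3 did not pass on polysomes, and 1 rose, 2 fell and 4 did not pass in the light fraction. Over all tested genes, 20.9% rose and 28.8% fell on polysomes, and 11.7% rose and 17.7% fell in the light fraction. Leaving out single libraries gave 3 rises and 0 to 2 falls on polysomes. UBA7, the activating enzyme, averaged 5.69 ± 0.35 scaled CPM with sorafenib and 1.53 ± 0.39 with vehicle on polysomes (1.93 ± 0.37, edgeR adjusted p = 3.18e-04). UBE2L6, the conjugating enzyme, averaged 16.7 ± 0.52 with sorafenib and 29.3 ± 3.03 with vehicle (-0.81 ± 0.24, edgeR adjusted p = 0.00957), and the call was lost without any 1 of the 3 vehicle light libraries or without sorafenib light library 1 or 3 (adjusted p = 0.0795 to 0.128). USP24, a deubiquitinase, rose on polysomes (1.48 ± 0.20, edgeR adjusted p = 1.81e-05) and fell in the light fraction (-1.23 ± 0.25, edgeR adjusted p = 0.00133). USP18, which removes ISG15, averaged 13.1 ± 3.55 with sorafenib and 11.6 ± 4.43 with vehicle on polysomes (0.20 ± 0.32, edgeR adjusted p = 0.619). HERC5, the main ligase, had at most 5 counts in any library and was not tested.

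Other interferon-stimulated genes did not move as one group. Of 33 tested among 48 in the table, 11 rose, 4 fell and 18 did not pass on polysomes (median 0.39), and 2 rose, 2 fell and 29 did not pass in the light fraction (median 0.21). For comparison, 20.9% of all tested genes rose and 28.8% fell on polysomes (median -0.26). In the light fraction 11.7% rose and 17.7% fell (median -0.12). Leaving out single libraries gave 10 to 16 rises and 2 to 4 falls on polysomes (2 falls without any 1 vehicle light library), and 1 to 5 rises and 0 to 2 falls in the light fraction. LGALS3BP, a secreted glycoprotein, averaged 170 ± 19.3 scaled CPM with sorafenib and 35.1 ± 3.86 with vehicle on polysomes (2.27 ± 0.21, edgeR adjusted p = 5.02e-07). PML, which forms nuclear bodies, rose on polysomes (1.79 ± 0.29, edgeR adjusted p = 8.80e-05), as did the aminopeptidase LAP3 (1.51 ± 0.22, edgeR adjusted p = 2.56e-05). ISG20, a small RNA exonuclease, averaged 4.65 ± 0.42 with sorafenib and 15.3 ± 2.50 with vehicle (-1.71 ± 0.30, edgeR adjusted p = 1.40e-04). IFI44L was called higher in the light fraction on at most 6 counts in a library, so no fold is given. Of the promoters of this list, 24 of 41 held the GAAANNGAAA match, against 3.71% of all genes. It was also found in 7 of 14 MHC class I and 4 of 11 interferon gene promoters. For the ISG15 enzymes, the receptor and signalling genes and the sensing genes it was 1 of 5, 1 of 16 and 1 of 12.

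Of the 20 receptor and signalling genes of the interferon pathway, 8 rose, 5 fell and 7 did not pass on polysomes (median 0.41), and 3 rose, 3 fell and 14 did not pass in the light fraction (median -0.22). The shares over all tested genes were 20.9% risen and 28.8% fallen on polysomes (median -0.26). In the light fraction they were 11.7% risen and 17.7% fallen (median -0.12). With single libraries left out, 5 to 10 rose (5 without vehicle polysome library 2 or sorafenib polysome library 3) and 3 to 4 fell on polysomes, and 2 to 5 rose and 1 to 4 fell in the light fraction. IRF1, a transcription factor induced by interferon gamma, averaged 32.3 ± 13.8 scaled CPM with sorafenib and 4.12 ± 0.70 with vehicle on polysomes (2.95 ± 0.30, edgeR adjusted p = 9.56e-07). JAK1 rose (2.28 ± 0.29, edgeR adjusted p = 8.37e-06) and the receptor chain IFNAR2 fell (-1.31 ± 0.26, edgeR adjusted p = 4.87e-04) on polysomes. STAT2 was at 6.63 ± 1.28 with sorafenib and 4.13 ± 2.55 with vehicle (0.70 ± 0.45, edgeR adjusted p = 0.201). IRF9 fell in the light fraction (-2.06 ± 0.56, edgeR adjusted p = 0.00965, and 0.0584 without sorafenib light library 1).

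Of 14 tested sensing and induction genes, 4 rose, 3 fell and 7 did not pass on polysomes, and 1 rose, 1 fell and 12 did not pass in the light fraction. Among all tested genes 20.9% rose and 28.8% fell on polysomes, and 11.7% rose and 17.7% fell in the light fraction. With single libraries left out, 1 to 6 rose on polysomes (1 without vehicle or sorafenib polysome library 3) and 0 to 3 fell (0 without any 1 vehicle light library or sorafenib light library 1 or 3). ADAR, an RNA-editing enzyme with an interferon-induced form, averaged 102 ± 6.74 scaled CPM with sorafenib and 50.0 ± 3.84 with vehicle on polysomes (1.03 ± 0.19, edgeR adjusted p = 2.59e-04). The 3 that fell there were MAVS, IRF3 and TRAF3. Over 27 alternative settings their log2 differences were -1.06 to -0.44, -0.85 to -0.22 and -1.05 to -0.50. They passed in 17, 6 and 11 of these settings. The 12 interferon genes were too low to test, with at most 2 counts of any one in a library; IFNB1 reached 1 and IFNL1 reached 2.

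Of 18 MHC class I antigen presentation genes, 10 rose, 4 fell and 4 did not pass on polysomes (median 0.70), where 20.9% of all genes rose and 28.8% fell. Leaving out single libraries gave 7 to 11 rises and 1 to 3 falls there (1 fall without vehicle light library 1 or 2). For the light fraction the counts were 8 that rose, 0 that fell and 10 that did not pass (median 0.65), where 11.7% of all genes rose and 17.7% fell. There were 0 falls also at an unadjusted p under 0.05 and by DESeq2. PDIA3, of the peptide-loading complex, averaged 557 ± 42.6 scaled CPM with sorafenib and 113 ± 24.7 with vehicle on polysomes (2.30 ± 0.27, edgeR adjusted p = 3.70e-06). B2M, the invariant chain of these molecules, averaged 470 ± 120 with sorafenib and 162 ± 17.4 with vehicle in the light fraction (1.54 ± 0.25, edgeR adjusted p = 2.56e-04). On polysomes it was at 341 ± 50.3 with sorafenib and 518 ± 46.2 with vehicle, a call that held in 2 of 27 alternatives.

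**Figure D4:**
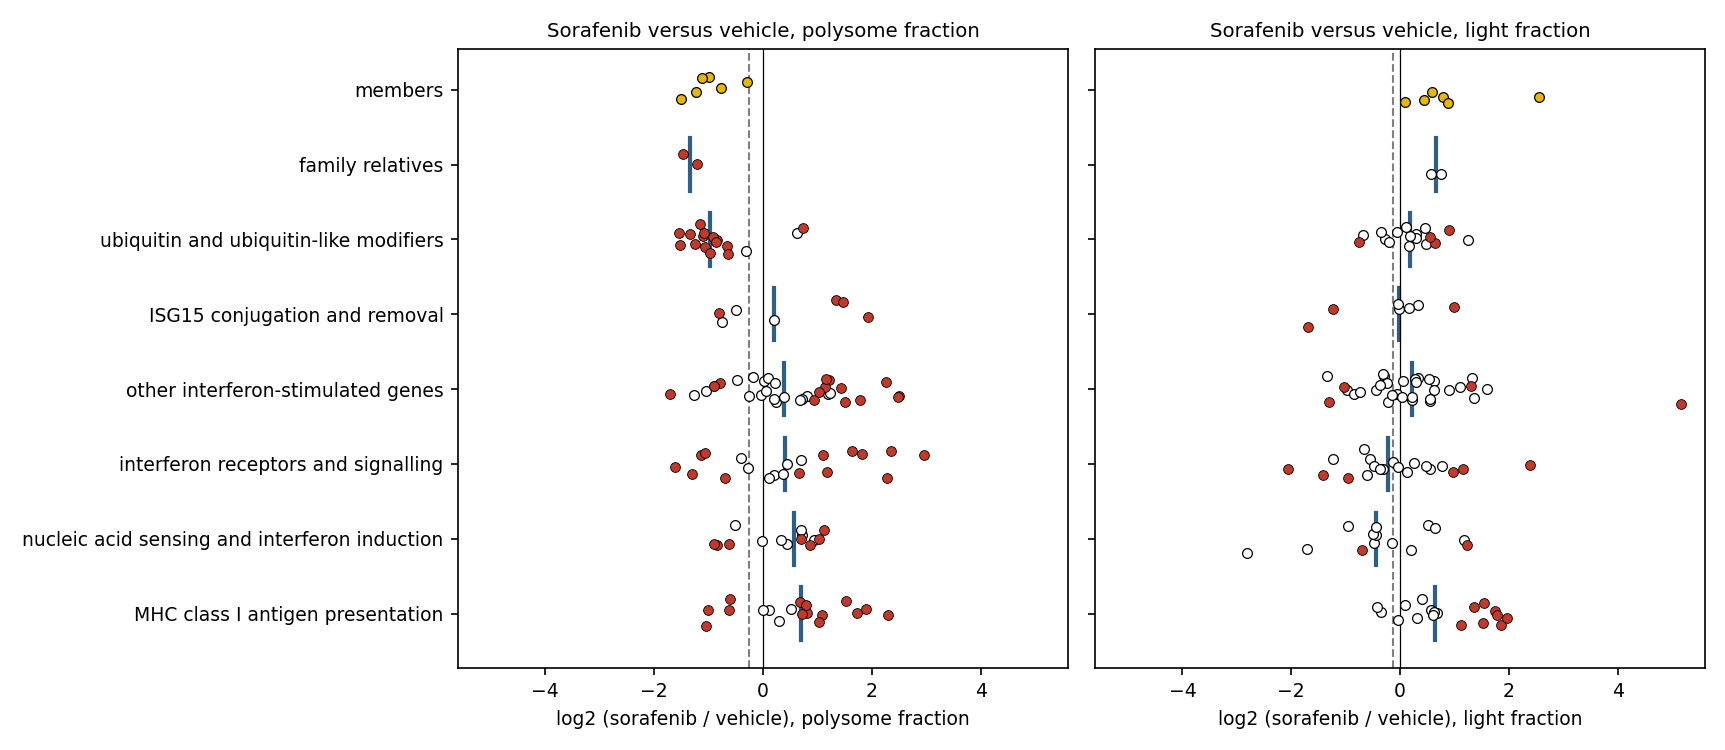
Log2 difference of sorafenib over vehicle for the measured members (yellow, no test shown) and the tested genes of 7 related lists, 1 point per gene, in the polysome (left) and light fraction (right); red passed the test (adjusted p under 0.05), white did not, blue bars are list medians and the dashed line is the median of all genes; the point far right in the light fraction is IFI44L, which rests on at most 6 counts. On polysomes the ubiquitin-like modifiers lie mostly left of the dashed line (median -0.97) and the MHC class I genes have a median of 0.70.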

How the data were processed

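The authors deposited whole-number counts per gene for 12 libraries, not normalized. Per the submitters' processing notes the genome was GRCh38.p12. Aligner, counter, annotation and strand use were not given in the sources used here, so genes with overlapping neighbours are uncertain. The test was edgeR's (4.0.16; limma 3.58.1; R 4.3.3). The filter filterByExpr left 14955 genes, scaled by TMM (factors 0.637 to 1.41) and fitted with 1 mean per group over all 12 libraries; the quasi-likelihood test used Benjamini-Hochberg adjusted p under 0.05 over all tested genes. SE is the absolute log2 difference over the square root of F. Culture ratios and correlations used log2 CPM with a prior count of 2. DESeq2 1.42.0 was an alternative, beside other scalings, filters, blocks and left-out libraries or cultures. The methods were tested on simulated data. Figures used matplotlib 3.10.9.

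The members and lists were chosen with earlier results of these data known. Named are all members, the 5 genes ranked after ISG15 and the 5 most like it, and from each list genes out of the 4 with the smallest p per treatment comparison, beside 9 fixed genes of the pathway; from those allowed, a part was picked for length after values were seen, and 2 are not reported here. Per the labels, polysome and light libraries that share treatment and number come from 1 culture, and their deviations from group means correlated at 0.05, 0.04 and 0.04 with sorafenib and 0.14, -0.07 and 0.33 with vehicle. If replicates were not independent cultures, p-values cover library-to-library spread alone. Replicate pairs differed by more than counting noise, with a chi-square of 8.82 to 46.1 per degree of freedom. The label of sorafenib polysome library 3 holds the same tag, S1, as that of vehicle light library 1. The labels do not say what the tag means, and a separate run or a slip could not be told.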

Additional observations from a re-analysis of the deposited data

Results flagged for a closer look

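The sorafenib effect on polysomes differed from that in the light fraction for the genes below, as the log2 effect on polysomes minus that in the light fraction. For ISG15 it was -3.33 and for IFITM2 -2.11. In scaled CPM, every sorafenib library of both genes lay below vehicle on polysomes and above vehicle in the light fraction. For IFITM2 the polysome groups overlapped in CPM of total counts, and sorafenib light library 2 held 5 counts. The difference of effects was not tested for these genes, because the set was chosen by it in ISG15, with earlier results of these data known. For the other genes the difference itself was tested (edgeR, adjusted p under 0.05). The fit did not pair the 2 fractions of a culture. Of all tested genes, 12.8% were called higher and 10.7% lower by this test. The genes listed were named for a small p in a treatment comparison, which is part of this difference, or as fixed genes of the pathway.

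The lower ones were IFI27L1 (-1.77), IFI27L2 (-2.21), ISG20 (-2.33), B2M (-2.14), UBE2L6 (-1.15) and the modifiers URM1 (-1.73), GABARAPL2 (-1.89), UBL5 (-1.70), ATG12 (-1.26), GABARAP (-1.54) and SUMO2 (-1.71). ISG20 and B2M passed in 26 of 26 alternatives, ATG12 in 18 of 26 and UBE2L6 in 11 of 26.

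The higher ones were USP24 (2.71), UBA7 (1.95), LGALS3BP (0.97), LAP3 (0.97), PML (1.84), JAK1 (1.31), STAT3 (1.10), IRF9 (2.27), ADAR (1.47), ERAP1 (1.28) and CANX (1.43). USP24 and ADAR passed in 26 of 26 alternatives, LAP3 and JAK1 in 17 of 26 each. IRF9 passed in 18 of 26, STAT3 and ERAP1 in 19 of 26 each and LGALS3BP in 20 of 26.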

How the results depend on the processing

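The 4 falls on polysomes became 1 without a low-count filter, 0 without both libraries of vehicle culture 3, and 2 to 4 when single libraries were left out. The 0 rises in the light fraction became 2 with library totals only, 1 with only the libraries compared, 2 without both shallow sorafenib light libraries, 2 without vehicle culture 3, 1 without sorafenib culture 2, and 0 to 1 when single libraries were left out. With the replicate number as a block, 4 members fell and 0 rose, and the polysome comparison of treatments gave 7306 calls against 7436. Of the 7436 calls 42.1% were higher, against 40.8% (without vehicle polysome library 1) to 70.1% (without a filter) under the alternatives. With TMM within each fraction 55.5% were higher, and the all-gene median was -0.03 in place of -0.26. The light-fraction comparison of treatments gave 4400 calls, 2488 without sorafenib culture 1 and 2754 to 4755 without single libraries (lowest without sorafenib light library 1). Of the 4400 calls 39.8% were higher, against 32.2% (without vehicle culture 2) to 73.5% (library totals only, all-gene median 0.31) under the alternatives. The shares of all genes that rose or fell with sorafenib, given above, thus depend on the processing. The vehicle fraction comparison gave 5401 calls (50.8% higher), 8190 with library totals only (89.3% higher, all-gene median 0.82) and 3035 without vehicle culture 2. The sorafenib fraction comparison gave 3857 calls (51.9% higher), 6501 with library totals (85.9% higher), 7781 with TMM within each fraction (90.5% higher), 7202 without a filter (65.5% higher), 6157 with DESeq2 (31.8% higher), 2161 without both shallow libraries and 1305 without sorafenib culture 1. The difference of effects gave 3528 calls, 3943 with the culture as a block, 1951 without vehicle culture 2 and 1599 without sorafenib culture 1. The cause of these shifts was not tested. Among other alternatives, 177 values of these counts and sums stayed within 1.5 times or 1 SD. ISG15 kept its direction on polysomes (-0.97 to -0.37), in the light fraction and in the difference of effects (-3.63 to -2.78) under all alternatives run, while its rank by vehicle ratio among all tested genes ran from 2 to 273. Depth limits IFI27, IFITM1, IFI6 and IFITM2 most, above all in sorafenib light library 2.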
